A study of Mus musculus with 6 samples.

Results

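The genes described here are 9 genes whose expression in skeletal muscle is set by nerve and electrical activity: the class IIa deacetylases Hdac4 and Hdac9, the Hdac4 target Dach2, the growth arrest gene Gadd45a, the transcription factor Runx1, the adhesion molecule Ncam1, the muscle ubiquitin ligases Trim63 (MuRF1) and Fbxo32 (atrogin-1), and the coactivator Ppargc1a (PGC-1 alpha). They are a list of named genes, 9 of the 23073 genes measured. RNA of diaphragm muscle at embryonic stage E14.75 was sequenced in 6 mouse libraries. Libraries wild-type 5 and wild-type 6 were whole muscle of erbB3 wild-type embryos, and mutant 1 and mutant 2 were whole muscle labelled erbB3 knockout, which lacks Schwann cells, the glia of peripheral nerve. Libraries Wnt1-Ribotag 1 and Wnt1-Ribotag 2 were polysome RNA immunoprecipitated by Ribotag, an epitope-tagged ribosomal protein switched on by Cre, and are labelled Wnt1-Cre, Ribotag and erbB3 wild-type. Wnt1-Cre is active in the neural crest lineage, which includes Schwann cells, and each Wnt1-Ribotag library pooled the diaphragms of a litter, in which only some embryos carried Wnt1-Cre. The question was whether muscle that lacks Schwann cells carried the pattern of denervated or inactive muscle. Shortly before this stage, the paper reports, more receptor clusters had nerve contact in mutant than in wild-type diaphragm. At E14.75 it describes damaged axon terminals at many, not all, mutant junctions. The groups are thus not fully innervated against fully denervated muscle.

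In adult muscle, nerve-evoked activity keeps a set of genes low, and loss of the nerve releases it. Denervation raises Hdac4, which represses Dach2 and Hdac9. Dach2 and Hdac9 normally restrain myogenin, an E-box-binding factor that activates acetylcholine receptor genes and the ubiquitin ligases Trim63 and Fbxo32. Denervated fibres also raise Runx1, Gadd45a and Ncam1, and lose Ppargc1a, the coactivator of oxidative metabolism. By this textbook scheme, 6 of the genes (Hdac4, Gadd45a, Runx1, Ncam1, Trim63, Fbxo32) would be higher and 3 (Hdac9, Dach2, Ppargc1a) lower in muscle without activity.

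Promoters of part of the 9 genes are shown because myogenin acts through E-boxes (CANNTG, a palindrome, so both strands are covered). Each line gives the 250 bases before a transcription start, 5′ to 3′ on the gene's strand, from RefSeq on GRCm38.p6, with E-boxes in capitals. Hdac9 has 2 starts, of which the first printed is the distal one, and the Runx1 line is the proximal of its starts. The Hdac4 start is an internal one, since the 5′ end of the annotated gene is at 92195699.
Hdac4, chr1:92180342-92180591, minus strand: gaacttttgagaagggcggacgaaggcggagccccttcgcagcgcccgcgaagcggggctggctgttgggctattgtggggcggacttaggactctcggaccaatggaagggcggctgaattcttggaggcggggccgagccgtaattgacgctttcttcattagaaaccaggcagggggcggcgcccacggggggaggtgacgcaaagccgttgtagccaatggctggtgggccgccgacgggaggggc
Hdac9 (distal), chr12:34917096-34917345, minus strand: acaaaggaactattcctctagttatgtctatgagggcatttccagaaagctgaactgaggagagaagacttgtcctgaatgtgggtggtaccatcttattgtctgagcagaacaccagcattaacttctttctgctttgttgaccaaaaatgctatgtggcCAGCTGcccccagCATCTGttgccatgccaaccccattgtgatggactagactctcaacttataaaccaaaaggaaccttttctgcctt
Hdac9 (proximal), chr12:34528890-34529139, minus strand: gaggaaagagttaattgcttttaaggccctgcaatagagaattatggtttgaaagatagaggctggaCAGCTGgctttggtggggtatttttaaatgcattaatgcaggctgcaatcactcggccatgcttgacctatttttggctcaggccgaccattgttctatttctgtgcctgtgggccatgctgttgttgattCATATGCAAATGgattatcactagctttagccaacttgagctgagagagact
Runx1 (proximal), chr16:92697330-92697579, minus strand: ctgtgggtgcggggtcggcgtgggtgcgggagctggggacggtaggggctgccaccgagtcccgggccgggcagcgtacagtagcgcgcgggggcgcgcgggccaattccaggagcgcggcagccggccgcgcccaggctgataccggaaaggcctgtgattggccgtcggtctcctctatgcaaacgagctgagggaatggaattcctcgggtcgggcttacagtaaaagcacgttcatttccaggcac
Trim63, chr4:134314870-134315119, plus strand: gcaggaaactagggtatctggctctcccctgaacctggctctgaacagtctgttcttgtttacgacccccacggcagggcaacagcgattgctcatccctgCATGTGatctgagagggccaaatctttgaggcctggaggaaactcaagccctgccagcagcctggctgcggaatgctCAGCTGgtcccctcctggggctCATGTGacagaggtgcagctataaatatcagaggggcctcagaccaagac
Trim63 held 3 E-boxes and the Hdac9 starts held 2 and 3, whereas the Hdac4 and proximal Runx1 windows held 0. The distal Runx1 window, not printed because 75 of its bases overlap an annotated exon, held 3. Among the other windows not printed, Ppargc1a held 6, Gadd45a held 1, and the Dach2 windows held 1 and 0. An E-box was present in 66.2% of 32851 such windows. The Trim63 window also held 1 match to TGTTTAC, the core bound by FOXO factors, searched on both strands, which begins 194 bases before the start and overlaps no E-box. That core was present in 3.17% of windows. A match is a description of the letters and was not tested as a binding site. Of the 9 genes, 7 had an entry in the promoter table, with 10 windows in all.

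The values are RPKM, in which reads are divided by the length of the gene and by library depth, so levels can be compared between genes. Depth ranged from 100178863 mapped reads (wild-type 5) to 230216660 (mutant 2). All 9 genes lay above the floor value of genes without reads in all 6 libraries. The labels were checked by markers. Erbb3 in the libraries labelled mutant (21.5 and 11.9 RPKM) lay on either side of the wild-type libraries (16.5 and 15.8), and since the part of the gene removed was not known here, whole-gene RPKM does not test the allele. Sox10, which defines the Schwann lineage, was 2.89 and 2.16 in wild-type, 0.00854 and 0.0178 in mutant, and 15.5 and 32.2 in Wnt1-Ribotag libraries. The summed RPKM of 14 skeletal muscle markers was 2901 to 3623 in wild-type, 4474 to 6409 in mutant and 3159 to 3423 in Wnt1-Ribotag libraries, so the polysome libraries lay within the range of whole wild-type muscle. In mutant 2 the sum was carried by 5 of the 14 (Mylpf, Tnnt3, Tnni2, Tnnc2 and Ckm), which were above both wild-type libraries, while the other 9, Acta1 and Myh3 among them, were below both. The 12 neuron markers summed to 15.7 in wild-type 5 and 76.0 in wild-type 6, to 9.66 and 13.7 in mutant 1 and 2, and to 129.4 and 570.8 in Wnt1-Ribotag 1 and 2. The 8 liver markers summed to 487.7 and 149.1 in wild-type and to 17.1 and 9.82 in mutant libraries. No marker of these lists was at the floor in both libraries of a group. In bulk RNA, fewer cells of a type and less RNA per cell cannot be told apart.

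None of the 9 genes passed the test between mutant and wild-type muscle. On RPKM as deposited the largest differences were in Runx1 and Hdac4, both below wild-type, which is opposite to their direction in denervated adult muscle. Trim63 exceeded Hdac4 in size with median-ratio scaling (0.40 beside -0.38) and quantile normalization (0.42 beside -0.31). Ncam1 did so with scaling to skeletal muscle markers (-0.97 beside -0.94). The ubiquitin ligases Trim63 and Fbxo32 and the coactivator Ppargc1a had mutant libraries that overlapped wild-type libraries. Of the 8 genes that met the minimum mean of 0.5 RPKM, 0 were called by limma at an adjusted p of 0.05, against 0.171% of all genes tested (24 of 14052). At an unadjusted p of 0.05 there were 2, Runx1 and Hdac4, where 12% of all genes passed. In the direction of denervation were the log2 fold changes of 2 of the 9 genes, Trim63 above 0 (as in 33% of all genes tested) and Dach2 below 0 (as in 67%). The count was 3 with quantile normalization or scaling to skeletal muscle markers, and 2 to 4 with a library left out (4 without mutant 2). Dach2 was the only one whose mutant libraries both lay beyond both wild-type libraries in that direction. Of the 8 genes tested, 3 (Hdac4, Runx1 and Ncam1) had both mutant libraries below both wild-type libraries and 0 had both above, where 37.4% and 12.7% of all genes did, and over all genes the median was -0.10 on the log2 scale. With 2 libraries against 2, an exact permutation test of a single gene cannot go below p = 0.33.

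**Figure D1:**
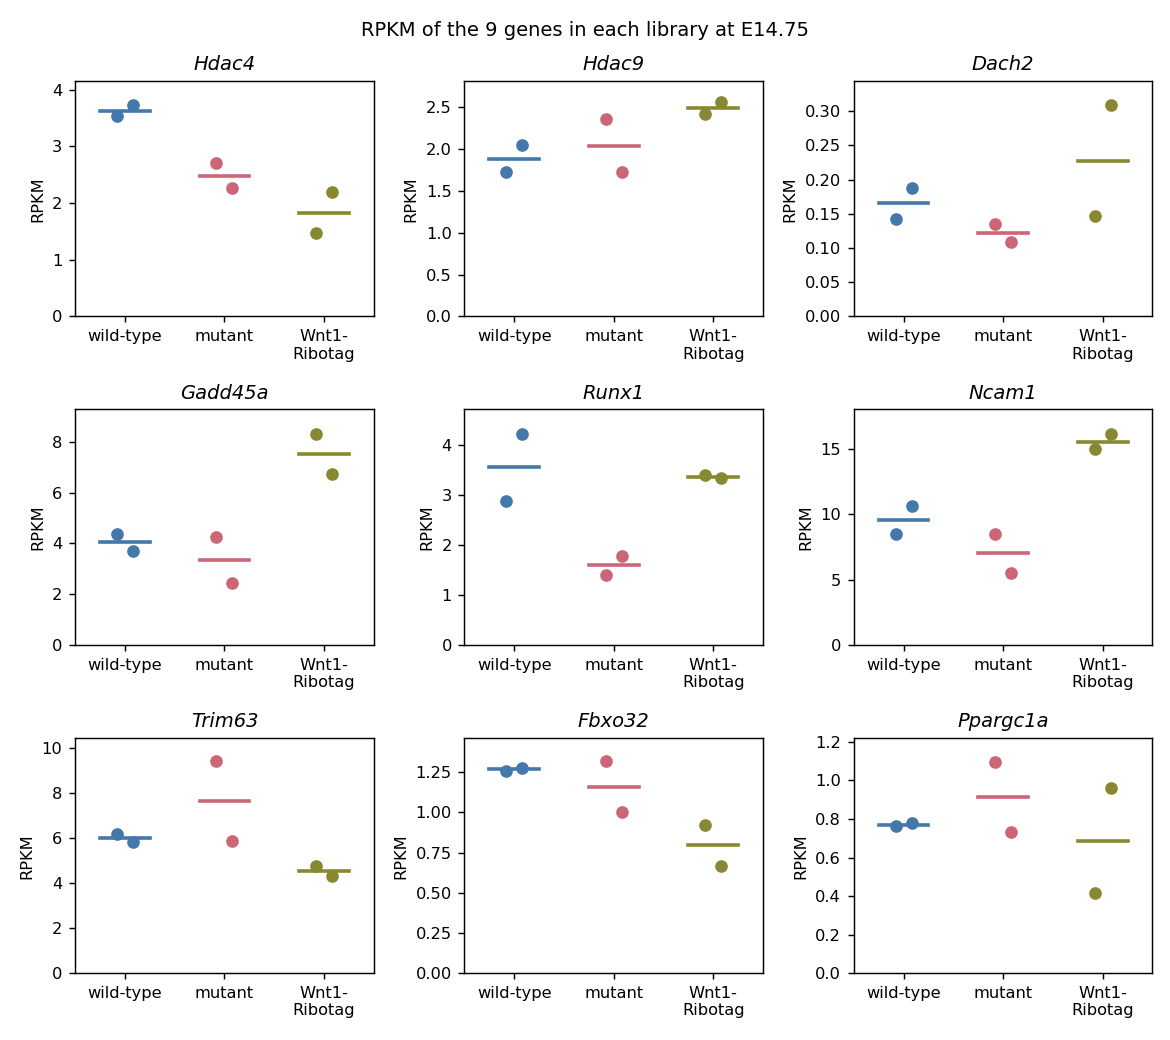
RPKM (linear axis from 0) of each of the 9 genes in the wild-type, mutant and Wnt1-Ribotag libraries. Points are libraries, the lower-numbered on the left, and bars are means of 2. Runx1, Hdac4, Dach2 and, by a narrow margin, Ncam1 have both mutant points below both wild-type points, whereas the mutant points of Trim63, Fbxo32, Hdac9 and Ppargc1a span the wild-type points or share their range.

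Among the upstream regulators, Hdac4, the deacetylase that carries the denervation signal to the nucleus, measured 3.53 and 3.73 RPKM in wild-type 5 and 6, 2.70 and 2.26 in mutant 1 and 2, and 1.47 and 2.20 in Wnt1-Ribotag 1 and 2. The 3 groups did not overlap between wild-type and either of the others. In mutant muscle its mean was 68.3% of wild-type. Mutant vs. wild-type differed by -0.47 on the log2 scale (SE 0.16, 95% interval -0.84 to -0.11, adjusted p = 0.369), and its sign was the same under all 13 alternatives, from -0.31 with quantile normalization to -0.94 (SE 0.59) with scaling to skeletal muscle markers, which moved the median of all genes to -0.59. The log2 factor of that scaling was 0.88 in mutant 1 but -0.32 in mutant 2, beside -0.16 and -0.40 in wild-type 5 and 6. Wnt1-Ribotag libraries stood -0.84 from wild-type on that scale (SE 0.26, adjusted p = 0.205).

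Hdac9, the activity-dependent deacetylase that denervation lowers, measured 1.73 and 2.05 RPKM in wild-type, 2.36 and 1.72 in mutant, and 2.42 and 2.56 in Wnt1-Ribotag libraries. Mutant 1 lay above and mutant 2 just below the wild-type libraries. Between mutant and wild-type the log2 fold change was 0.08 (SE 0.18, 95% interval -0.34 to 0.51, adjusted p = 0.853), and was -0.36 when libraries were scaled to skeletal muscle markers but 0.25 with quantile normalization. As a description made after the values were seen, the ratio of Hdac4 to Hdac9 within a library was 2.05 and 1.82 in wild-type, 1.15 and 1.31 in mutant, and 0.606 and 0.858 in Wnt1-Ribotag libraries. The ratio, which does not depend on the scaling between libraries, was thus higher in wild-type than in mutant muscle, whereas Hdac4 rises over Hdac9 in denervated adult muscle.

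Dach2, the corepressor of myogenin that Hdac4 shuts off, was the lowest of the 9 genes, with 0.143 and 0.188 RPKM in wild-type, 0.135 and 0.109 in mutant, and 0.146 and 0.309 in Wnt1-Ribotag libraries. Both mutant libraries were below both wild-type libraries, by as little as 0.143 against 0.135. It did not meet the minimum mean, and in the fit without that minimum its log2 fold change, on the log2(RPKM + 0.5) scale that shrinks differences of low genes, was -0.10 (SE 0.05, 95% interval -0.23 to 0.03, adjusted p = 0.568). It was -0.048 without wild-type 6 and -0.15 without wild-type 5. As differences of means without a test, it was -0.0085 with quantile normalization, -0.22 with scaling to skeletal muscle markers and -0.26 on log2(RPKM + 0.1).

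Runx1, which is induced in denervated fibres and protects them from wasting, measured 2.89 and 4.23 RPKM in wild-type 5 and 6, 1.41 and 1.79 in mutant 1 and 2, and 3.40 and 3.34 in Wnt1-Ribotag 1 and 2. Both mutant libraries were lower than all 4 others. The mutant mean was 44.9% of wild-type. Its log2 fold change in limma was -0.94 (SE 0.20, 95% interval -1.41 to -0.47, adjusted p = 0.152), and it ranked 169 of 14052 by p. Its sign was the same under all 13 alternatives, from -0.70 to -1.36, and its adjusted p never went below 0.0871. Wnt1-Ribotag libraries differed from mutant by 0.89 (SE 0.28, adjusted p = 0.175, but 0.0367 without Wnt1-Ribotag 1 and 0.0264 without Wnt1-Ribotag 2, fits that called 17.8% and 26% of all genes) and from wild-type by -0.05 (SE 0.25, adjusted p = 0.933), a sign that turned with median-ratio scaling (0.019). Runx1 and the sum of the neuron markers had the same order in the mutant and wild-type libraries, both highest in wild-type 6, whereas in Wnt1-Ribotag libraries the neuron sum was higher still and Runx1 lay within the wild-type range. The part of nerve in the difference was not tested.

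Ncam1, a neural adhesion molecule of nerve, glia and immature or denervated fibres, measured 8.52 and 10.6 RPKM in wild-type, 8.50 and 5.51 in mutant, and 15.0 and 16.2 in Wnt1-Ribotag libraries. Mutant 1 all but equalled wild-type 5, and both Wnt1-Ribotag libraries were above the 4 others. The log2 fold change was -0.45 in mutant vs. wild-type (SE 0.21, 95% interval -0.94 to 0.05, adjusted p = 0.430; -0.15 without mutant 2 and -0.74 without mutant 1), 0.68 in Wnt1-Ribotag vs. wild-type (SE 0.19, adjusted p = 0.193; 0.20 with scaling to skeletal muscle markers) and 1.13 in Wnt1-Ribotag vs. mutant (SE 0.27, adjusted p = 0.117). The last was called in the fit of all 6 libraries together (adjusted p = 0.0464), where 4.83% of all genes were called. It was also called with libraries of the same number taken as pairs (adjusted p = 0.0474, 5.88% of all genes). Neuron and Schwann cell markers were highest in the same Wnt1-Ribotag libraries. The Schwann markers, 11 genes, summed to 163.6 and 374.7 there, against 47.1 and 40.0 in wild-type and 28.4 and 16.3 in mutant libraries. Their part in the Ncam1 difference was not tested.

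Gadd45a, a stress-response gene that mediates nuclear changes in denervation atrophy, measured 4.38 and 3.69 RPKM in wild-type, 4.27 and 2.46 in mutant, and 8.29 and 6.72 in Wnt1-Ribotag libraries. The mutant and wild-type libraries overlapped, and both Wnt1-Ribotag libraries were above the rest. The log2 fold change of mutant vs. wild-type was -0.27 (SE 0.23, 95% interval -0.81 to 0.27, adjusted p = 0.598), and it was 0.077 without mutant 2. In Wnt1-Ribotag libraries it was 0.82 above wild-type (SE 0.21, adjusted p = 0.183; 0.36 with scaling to skeletal muscle markers) and 1.09 above mutant (SE 0.31, adjusted p = 0.155).

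The downstream effectors of atrophy were Trim63 and Fbxo32, which tag muscle proteins for breakdown. Trim63 measured 6.19 and 5.82 RPKM in wild-type, 9.41 and 5.88 in mutant, and 4.77 and 4.31 in Wnt1-Ribotag libraries. Mutant 1 alone stood above, and mutant 2 lay between the wild-type libraries. On the log2 scale the mutant libraries differed by 0.29 (SE 0.21, 95% interval -0.20 to 0.78, adjusted p = 0.539), but -0.028 without mutant 1 and -0.23 after scaling to skeletal muscle markers, where it lay above the median of all genes (-0.59). The sum of those markers was highest in mutant 1 (6409, against 4474 in mutant 2). Fbxo32 measured 1.26 and 1.28 RPKM in wild-type, 1.32 and 1.0 in mutant, and 0.920 and 0.669 in Wnt1-Ribotag libraries. Its mutant libraries lay on either side of wild-type, with a log2 fold change of -0.10 (SE 0.17, 95% interval -0.49 to 0.30, adjusted p = 0.806) that was 0.071 under quantile normalization. The ratio of Trim63 to Fbxo32 was 4.92 and 4.56 in wild-type, 7.12 and 5.88 in mutant, and 5.18 and 6.44 in Wnt1-Ribotag libraries.

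Ppargc1a, which drives mitochondrial genes in active muscle, measured 0.761 and 0.777 RPKM in wild-type, 1.09 and 0.734 in mutant, and 0.415 and 0.960 in Wnt1-Ribotag libraries. The wild-type libraries lay close together and both other groups spread to either side of them. The log2 fold change of mutant vs. wild-type was 0.14 (SE 0.19, 95% interval -0.28 to 0.57, adjusted p = 0.723), and -0.20 after scaling to skeletal muscle markers but 0.32 with quantile normalization. Wnt1-Ribotag 2 exceeded Wnt1-Ribotag 1 more than in any other of the 9 genes on the log2 scale (0.68), so this gene gives no order between the groups.

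**Figure D2:**
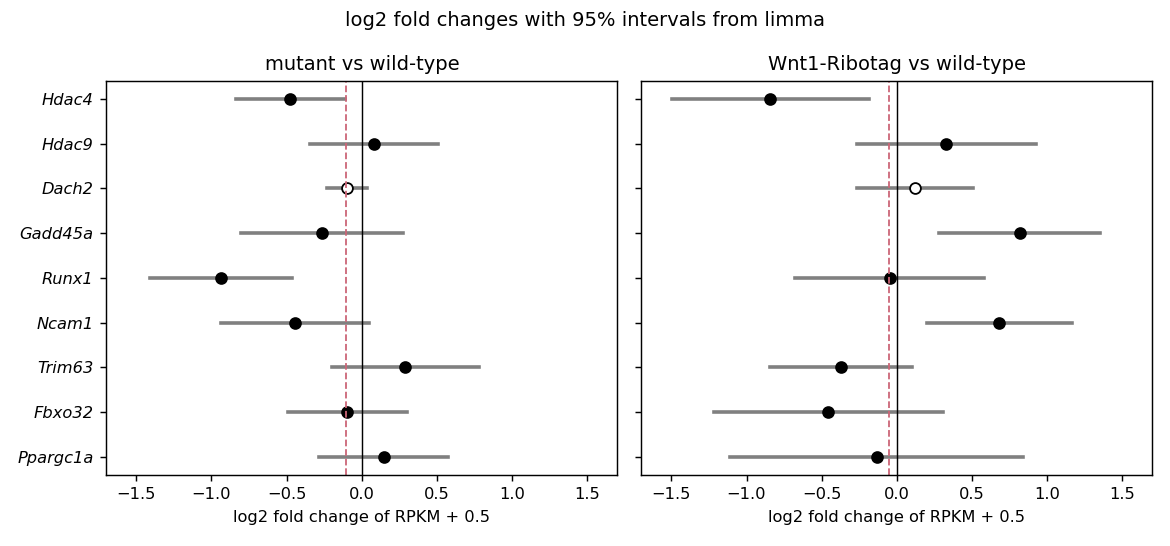
Log2 fold changes of RPKM + 0.5 (horizontal axis) for the 9 genes in mutant and in Wnt1-Ribotag libraries, each against wild-type. Points are estimates and bars 95% intervals from limma, the open point (Dach2) is from the fit without a minimum level, and the dashed line is the median of all genes tested. Runx1 (-0.94) and Hdac4 (-0.47) lie lowest on the left, whereas Gadd45a (0.82) and Ncam1 (0.68) lie highest on the right.

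In wild-type muscle the levels ran from Ncam1 (mean 9.57 RPKM) and Trim63 (6.0) through Gadd45a (4.03), Hdac4 (3.63), Runx1 (3.56), Hdac9 (1.89), Fbxo32 (1.27) and Ppargc1a (0.769) to Dach2 (0.166). The neighbours Gadd45a and Hdac4, and Hdac4 and Runx1, overlapped between libraries, and the others did not. In mutant muscle Trim63 (7.64) came before Ncam1 (7.00), with overlapping libraries, and Runx1 (1.60) came after Hdac9 (2.04), again with overlapping libraries. In Wnt1-Ribotag libraries Gadd45a (7.51) moved ahead of Trim63 (4.54), and Hdac9 (2.49) ahead of Hdac4 (1.83), without overlap.

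The Wnt1-Ribotag comparisons share the wild-type and mutant libraries with the comparison above. They also differ from whole muscle in their RNA input and in the polysome step, which cannot be told apart from the cells sampled. Of the 8 genes tested, 0 were called against wild-type, where 0.00694% of all genes were called. Also 0 were called against mutant, where 1.19% were. At an unadjusted limma p of 0.05 there were 3 in each, where 19.5% and 19.3% of all genes passed. Of the 8 log2 fold changes from wild-type 3 were positive and 5 negative (45.6% and 54.4% of all genes), and of those from mutant 4 were positive and 4 negative (53% and 47%). Both Wnt1-Ribotag libraries were above both wild-type libraries in 3 of the 8, Hdac9, Gadd45a and Ncam1 (23.3% of all genes), and below both in 3, Hdac4, Trim63 and Fbxo32 (31%). They were above both mutant libraries in 4, Hdac9, Gadd45a, Runx1 and Ncam1 (29.7%), and below both in 3, Hdac4, Trim63 and Fbxo32 (24.4%).

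The other genes raised in denervated muscle, a list of 14, were measured to see whether the wider programme moved. Of them 12 were tested, 0 were called, 5 had positive and 7 negative log2 fold changes in mutant vs. wild-type muscle, and the median was -0.07 beside -0.10 over all genes. Sln, which encodes sarcolipin, a regulator of the calcium pump, measured 164 and 135 RPKM in wild-type, 366 and 308 in mutant, and 143 and 159 in Wnt1-Ribotag libraries. Both mutant libraries were far above the 4 others, 1.17 higher on the log2 scale (SE 0.17), with an adjusted p of 0.0608. Myog, which encodes myogenin, measured 266 and 212 RPKM in wild-type and 313 and 232 in mutant libraries, which overlapped (log2 fold change 0.18, adjusted p = 0.678). Ankrd1, a stretch-responsive muscle ankyrin protein, measured 6.12 and 7.17 in wild-type and 9.71 and 9.31 in mutant libraries (0.49, adjusted p = 0.309). Cdkn1a, the cell cycle inhibitor p21, measured 73.6 and 69.2 in wild-type and 89.9 and 52.7 in mutant libraries. Outside the rule for named genes, the acetylcholine receptor subunits were looked at after their values were seen. Chrna1 measured 14.3 and 14.6 in wild-type and 20.5 and 16.8 in mutant libraries (0.35, adjusted p = 0.410), and Chrng, the embryonic subunit, 29.9 and 26.3 against 38.7 and 15.7 (-0.18, adjusted p = 0.823). Chrnb1 and Chrnd overlapped between the groups, at 0.13 (adjusted p = 0.782) and -0.09 (adjusted p = 0.909). The skeletal muscle markers, 14 genes, had 0 called, 9 positive and 5 negative values and a median of 0.17, and 5 of the 14 lay above both wild-type libraries in both mutant libraries, as did 12.7% of all genes. Their part in Sln and Chrna1 was not tested.

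The atrophy and protein breakdown list held 17 genes in the files, all tested, with 0 called, 7 positive, 10 negative and a median of -0.02. Eif4ebp1, a repressor of translation, measured 63.6 and 55.5 RPKM in wild-type and 73.7 and 80.4 in mutant libraries (log2 fold change 0.37, adjusted p = 0.390). Foxo3, the transcription factor that activates the ubiquitin ligases, measured 8.62 and 10.6 in wild-type and 8.76 and 6.40 in mutant libraries (-0.33, adjusted p = 0.464). The lysosomal protease Ctsl and the autophagosome gene Map1lc3b, which with Eif4ebp1 were the most abundant of the list, measured 62.9 and 65.9 against 67.3 and 81.3, and 50.9 and 47.6 against 44.4 and 53.0.

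In the list of activity-raised and oxidative genes, 14 of 17 were tested, with 0 called, 5 positive, 9 negative and a median of -0.11. Ckm, the muscle creatine kinase, measured 139 and 87.8 RPKM in wild-type and 332 and 178 in mutant libraries, 1.13 apart on the log2 scale (SE 0.31), with an adjusted p of 0.280. Mb, which encodes myoglobin, measured 6.08 and 4.76 against 7.85 and 7.09 (0.44, adjusted p = 0.390), and Cycs, the mitochondrial cytochrome c, 57.8 and 58.4 against 69.9 and 82.6 (0.38, adjusted p = 0.384). Cs, the citrate synthase of the same organelle, measured 81.0 and 82.5 against 72.9 and 72.1 (-0.17, adjusted p = 0.547). The mitochondrial genes thus lay on both sides of 0.

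In the list of activity signalling to the nucleus, 20 of 21 genes were tested, with 0 called, 3 positive, 17 negative and a median of -0.16. Over all genes tested, 67% were negative. Nfatc4, a calcineurin target, measured 23.3 and 27.3 RPKM in wild-type and 21.1 and 17.6 in mutant libraries (log2 fold change -0.38, adjusted p = 0.399). Hdac5, the close relative of Hdac4, measured 9.84 and 9.88 against 8.63 and 7.22 (-0.30, adjusted p = 0.433). The MEF2 genes Mef2a and Mef2c had overlapping libraries, with Mef2a at 37.7 and 43.0 against 43.3 and 35.5, and Mef2c at 37.0 and 37.5 against 40.2 and 32.5.

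**Figure D3:**
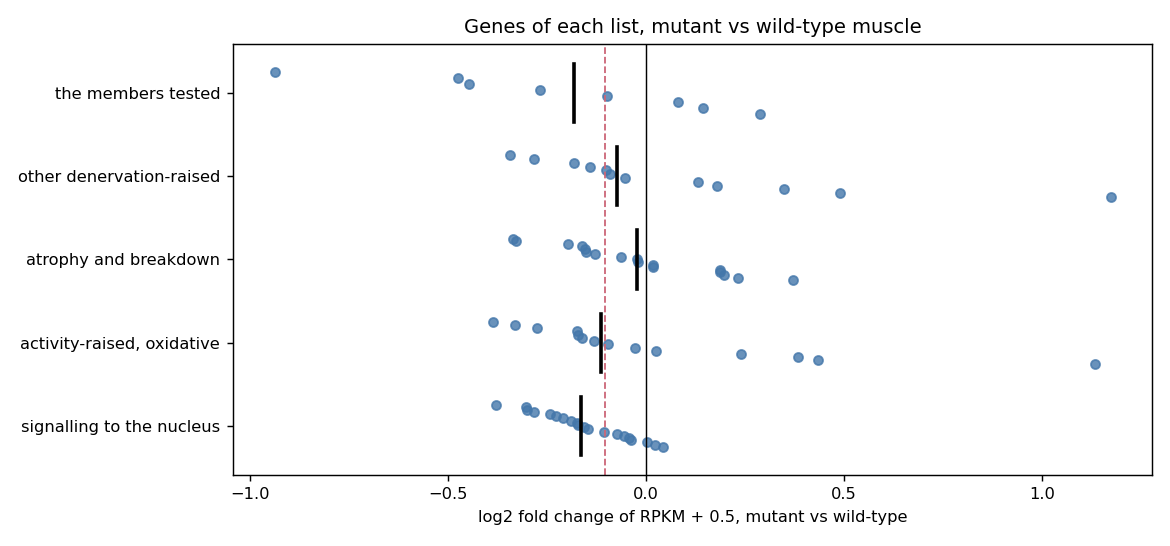
Log2 fold change of RPKM + 0.5, mutant vs. wild-type muscle, for every gene tested among the 9 genes and in 4 lists of activity-related genes (points), with the list's median as a black bar and the median of all genes tested (-0.10) as a dashed line. The medians lie between -0.18 (the 8 members tested) and -0.02 (atrophy and breakdown), and, among the genes plotted, Runx1 (-0.94) at the left and Sln (1.17) and Ckm (1.13) at the right stand farthest out.

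**Figure D4:**
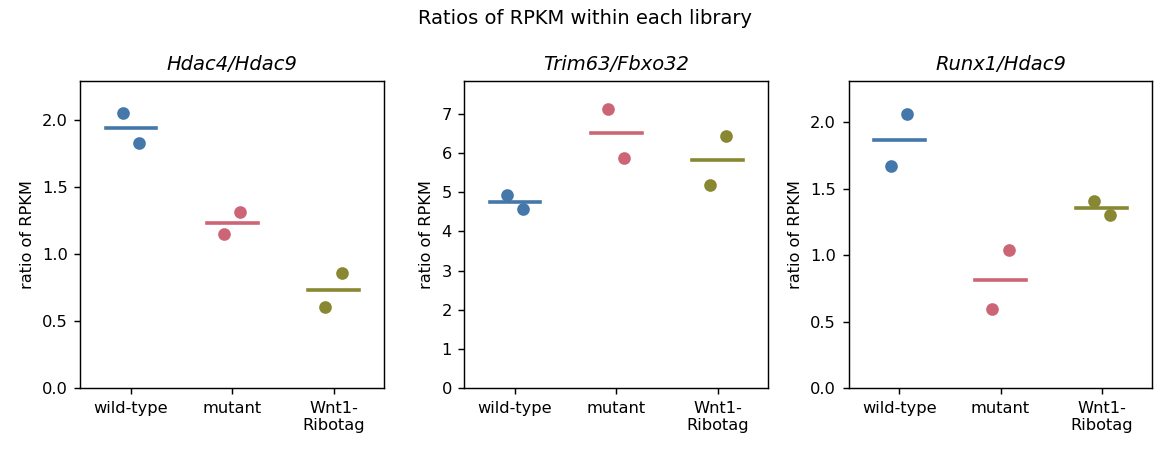
Ratios of RPKM within each library (linear axis from 0) for 3 pairs of the 9 genes, chosen after their values were seen and so not tested. Points are libraries and bars means of 2. Hdac4/Hdac9 was 1.82 to 2.05 in wild-type and 1.15 to 1.31 in mutant libraries, and Runx1/Hdac9 was 1.67 to 2.07 and 0.598 to 1.04.

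The genes of most similar pattern to each of the 9 were the 2 with the smallest root mean square difference of centred log2 values over the 6 libraries, among 13119 genes with a mean of at least 1 RPKM. For Trim63, whose mutant 1 library stood alone, they were Tnni1 (difference 0.086), the slow troponin I of the contractile apparatus, and Abca9. Runx1 had the least close neighbours, Map1b (0.149), a microtubule protein of neurons, and Slit3 (0.164), a guidance ligand. Map1b measured 10.1 and 13.9 RPKM in wild-type, 7.16 and 6.38 in mutant, and 11.6 and 11.0 in Wnt1-Ribotag libraries. Those of Ncam1 were Spon1 and Tgfbr3, those of Hdac4 were Irf2bpl and an unnamed gene, and those of Gadd45a were Cnmd and 2900026A02Rik. Hdac9 had Vps37a and Ppp1r9a, Dach2 had Bard1 and Tfdp1, Fbxo32 had Myo1c and Tmem129, and Ppargc1a had Mlycd, the malonyl-CoA decarboxylase of fatty acid metabolism, and Dock9. With 6 libraries, the measure describes these profiles and was not tested.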

How the data were processed

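Diaphragm RNA of 6 libraries, 2 per group, was analysed. The study's text describes the whole-muscle libraries of a group as separate diaphragm samples, and each Wnt1-Ribotag library as a pool of diaphragms of a litter. For each library the authors deposited RPKM, with a mark (a number, another column of the deposited files) for genes at a floor value. The submitters' processing notes name STAR and mm9, while the program behind the RPKM is not given in the sources used here. Whole counts were not used, so counting error was not computed, and depth came from the floor values. Symbols came from GENCODE M21 and promoter positions from RefSeq on GRCm38, not mm9.

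The test was limma 3.58.1 with a trended prior, run in R 4.3.3 on log2(RPKM + 0.5) of every gene averaging 0.5 RPKM or more over the 4 libraries compared. The p-values were adjusted by Benjamini and Hochberg's method over all of these genes, and 0.05 was the threshold. The procedure was also run on simulated data, and the outcome is not reported here. The members and lists were chosen with earlier results of these data known. The genes named are the 9 members, and of each other list any gene called in mutant vs. wild-type muscle, the 3 with the highest mean RPKM and the 2 with the largest log2 fold change, and for each member the 2 genes of most similar pattern. Values are given for part of these, and the results of 1 list, partners of Dach2, are not reported here. Of the lists, Fbxo31 and Aif1 were not matched. The alternatives are given in the closing section.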

Additional observations from a re-analysis of the deposited data

How the results depend on the processing

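With no library left out, 0 members were called in mutant vs. wild-type muscle under any setting, where 0% to 0.608% of all genes were. Of the 9 genes, 7 to 9 were tested, and Dach2 only in the fit without a minimum mean. The lowest adjusted limma p of any member was 0.131, with a minimum mean of 1 RPKM. The count of genes in the direction of denervation was 2, was 3 with quantile normalization or muscle scaling, 4 without mutant 2 (range 2 to 4 over the libraries left out) and was 1 when both mutant libraries had to lie beyond both wild-type libraries. The signs of some members turned under an alternative. In mutant vs. wild-type these members were Hdac9 (-0.36 with scaling to skeletal muscle markers, -0.014 without wild-type 5, -0.098 without mutant 1), Gadd45a (0.077 without mutant 2), Trim63 (-0.23 with muscle scaling, -0.028 without mutant 1), Fbxo32 (0.071 with quantile normalization, 0.043 without mutant 2) and Ppargc1a (-0.20 with muscle scaling, -0.040 without mutant 1). In Wnt1-Ribotag vs. wild-type these were Hdac9 (-0.081) and Dach2 (-0.013) with muscle scaling, Dach2 (-0.041 without Wnt1-Ribotag 2), Runx1 (0.019 with median-ratio scaling, 0.19 without wild-type 6) and Ppargc1a (0.20 without Wnt1-Ribotag 1), and in Wnt1-Ribotag vs. mutant Ppargc1a (0.058 without Wnt1-Ribotag 1). At the other end of the values with a library left out stood, in mutant vs. wild-type, Hdac9 at 0.26, Gadd45a at -0.61, Trim63 at 0.61, Fbxo32 at -0.24 and Ppargc1a at 0.33, in Wnt1-Ribotag vs. wild-type Dach2 at 0.28, Runx1 at -0.29 and Ppargc1a at -0.47, and in Wnt1-Ribotag vs. mutant Ppargc1a at -0.62.

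Against wild-type, 1 of the 9 genes was called in Wnt1-Ribotag libraries with muscle scaling (Hdac4, adjusted p = 0.0299, where 11.6% of all genes were called), and 0 to 3 with a library left out (3 without either Wnt1-Ribotag library, Hdac4, Gadd45a and Ncam1, where 31% of all genes were called without Wnt1-Ribotag 1 and 41.8% without Wnt1-Ribotag 2). Against mutant, 1 was called with all 6 libraries in 1 fit (Ncam1, where 4.83% of all genes were called), and 0 to 3 with a library left out (2 without Wnt1-Ribotag 1, Runx1 and Ncam1, where 17.8% of all genes were called, and 3 without Wnt1-Ribotag 2, Gadd45a, Runx1 and Ncam1, where 26% were). A fit that leaves 1 library in a group assumes that it varies like the others. The replicate block for Wnt1-Ribotag and mutant libraries, which share only their numbers (correlation of deviations 0.168, 2 pairs), called 842 genes (5.88%) in place of 171, and 1 of the 9, Ncam1 (adjusted p = 0.0474). Mutant and wild-type libraries share no number in the labels. The study compares these groups pair by pair, but which libraries pair is not in the labels, and no paired fit was made there.

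Over all genes, mutant vs. wild-type gave 24 calls (7 higher, 17 lower), 86 with muscle scaling (4 higher, 82 lower), 0 without the filter (2155 at an unadjusted limma p of 0.05), 0 with all 6 libraries in 1 fit (495) and 10 to 106 with a library left out. Wnt1-Ribotag vs. wild-type gave 1 call, 0 without the filter, 2 with median-ratio scaling, 1677 with muscle scaling (254 higher, 1423 lower), 138 with all 6 libraries and 26 to 5965 with a library left out. Wnt1-Ribotag vs. mutant gave 171 (146 higher, 25 lower), 112 without the filter (13 higher, 99 lower), 81 with quantile normalization, 692 with all 6 libraries and 112 to 3672 with a library left out. The causes were not tested. The median of all genes in mutant vs. wild-type was -0.10, -0.00055 with median-ratio and -0.59 with muscle scaling, the last beside -0.94 for Hdac4 and -1.36 for Runx1 under the same scaling. The muscle scaling rested on mutant 1 (log2 factor 0.88), since the factor of mutant 2 (-0.32) lay between those of wild-type 5 and 6 (-0.16 and -0.40). The muscle-scaled values of Hdac9, Trim63 and Ppargc1a, though below 0, lay above that median, so their turned signs follow from a shift of all genes. In Wnt1-Ribotag vs. wild-type muscle scaling moved the median of all genes from -0.05 to -0.51.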
